A study of Mus musculus with 165 samples.

Results

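The network of MYC, MAX and the MXD proteins was followed through macrophage and neutrophil differentiation of PUER cells. Its members were taken by symbol from the deposited table and are Myc, Mycn, Max, Mxd1, Mxd3, Mxd4, Mnt, Mga and Mlx, 9 of the 36255 genes listed. PUER is a mouse hematopoietic progenitor line without its own PU.1 (Spi1-/-). In its place the cells carry a fusion of PU.1 with part of the estrogen receptor that 4-hydroxy-tamoxifen (OHT) switches on, and every group described here shares the deletion and the fusion. Undifferentiated cells grew in IL3 without OHT (3 libraries). IL3-OHT cells received 200 nM OHT in IL3 and were harvested at 27 time points from 1h to 168h (81 libraries), the macrophage course. GCSF 0h cells had spent 48 h in GCSF in place of IL3 and had not yet received OHT (3 libraries). GCSF-OHT cells then received 100 nM OHT in GCSF and were harvested at the same 27 time points (78 libraries), the neutrophil course. The cytokine, the OHT dose and the pre-treatment differ together between the courses, and their parts cannot be told apart. Part of the medium was exchanged and fresh OHT given at 40h, 88h and 136h. All libraries are wells of 1 cell line, so the p-values measure the spread between wells. Each time point had its own plate, and at all time points after 24h the cells were detached with trypsin. The parts of plate and trypsin in a difference between time points cannot be told apart from that of time. No cells were harvested without OHT after 0h. An OHT effect is here the change from the start of the course, undifferentiated cells or GCSF 0h. In it, OHT and time in culture cannot be told apart.

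MYC and MYCN are transcription factors that bind DNA only as a pair with MAX, at the E-box, and activate genes of ribosome production, metabolism and growth. MXD1, MXD3, MXD4 and MNT pair with the same MAX, bind the same E-box and recruit the SIN3 and histone deacetylase corepressor, so that they oppose MYC. MGA is a large MAX partner that also carries a T-box and works in a Polycomb-type repressor complex. MLX is a relative of MAX that pairs with MXD1, MXD4 and MNT and with the glucose sensors MondoA (Mlxip) and ChREBP (Mlxipl). An exchange of MYC for MXD1 as the partner of MAX is a textbook feature of granulocyte and macrophage maturation.

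The E-box of these dimers, CACGTG, was searched in the RefSeq promoter windows (250 bases before to 50 bases after the annotated start, GRCm38.p6). It reads the same on both strands. Of the 9 members, 8 had a window (all but Myc), and in 4 of these 8 the letters were found, against 7.15% of all 32851 windows. The windows are shown because the same letters that the members' proteins bind stand beside the starts of Max, Mlx, Mnt and Mxd4. The match is a description of letters and says nothing of binding. Each line gives 30 bases, 5′ to 3′ on the gene's strand, with the E-box in capitals.
Max (chr12:76962234-76962263, minus strand, E-box beginning 3 bases before the start): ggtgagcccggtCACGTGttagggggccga
Mlx (chr11:101087238-101087267, plus strand): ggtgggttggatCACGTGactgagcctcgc
Mnt (chr11:74830789-74830818, plus strand): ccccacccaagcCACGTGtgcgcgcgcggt
Mxd4 (chr5:34187912-34187941, minus strand): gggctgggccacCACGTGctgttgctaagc
The PU.1 core GAGGAAG, read on both strands, stood in 1 of the 8 windows, that of Mnt, against 13.6% of all windows.

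Between 14600246 and 33147945 reads on genes lay behind each library (median 21960878). The limit that 3 reads set lay between normalized counts of 1.96 and 5.51 (counting error only). All members apart from Mycn had at least 27 reads in every library. Mycn had at most 3 reads in any library and reads in 9 libraries, which cannot be told from 0 at this depth, and it did not pass the filter of a normalized count of 5 in 1 library. Of the 9 members, 8 were therefore tested. Undifferentiated cells expressed the progenitor genes Kit (a mean of 4053, n = 3) and Mpo (3775). The progenitor gene Cd34 was only at 2.74 ± 0.757 and the pan-leukocyte gene Ptprc at 3.22 ± 1.95 (SD). Spi1 was at 9990 ± 246 (SD), where reads of the fusion and of the deleted locus cannot be told apart. The summed level of 6 macrophage markers was 2712 to 2984 in undifferentiated cells, 12406 to 13320 at IL3-OHT 168h and 9823 to 10742 at GCSF-OHT 168h. That of 8 neutrophil markers was 150490 to 158170, 222750 to 252840 and 693910 to 731060. Csf1r stayed at 4.91 ± 1.55 at IL3-OHT 168h and the mature neutrophil gene Ly6g at 29.3 ± 7.33 at GCSF-OHT 168h. Of 12 markers of other cell types, 10 stayed at or below a normalized count of 19.5 in every library. The exceptions were Mcpt8 of basophils (up to 289) and Col1a1 (up to 72.7). The authors left IL3-OHT at 96h and at 144h out of their analysis. These 6 libraries stood apart from their neighbours, were kept out of the fit and are described on their own. In bulk samples, fewer cells of a type and less RNA per cell cannot be told apart.

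Levels per kilobase of exon were used to compare the members, with the union of all annotated exons as the length. The lengths of the transcripts present were not measured, so the order of the members depends on the annotation. In undifferentiated cells Myc was highest at 1519.7 ± 23.5 normalized counts per kb (SD, n = 3), followed by Mnt (488 ± 18) and Mlx (408 ± 34.5). Mxd4 (246 ± 2.62), Mga (238 ± 6.14), Mxd1 (211.97 ± 4.42) and Max (209.1 ± 10.8) came next. The libraries of Mxd4 and Mga overlapped in this order, as did those of Mxd1 and Max. Mxd3 was lowest at 39.8 ± 3.12. At GCSF-OHT 168h Mxd1 was highest (1470.1 ± 209.8 per kb) and stood above Myc (737 ± 28.4), whereas at IL3-OHT 168h Myc (757 ± 16.6) and Mnt (614 ± 55.3) were above Mxd1 (346 ± 12.9).

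Both courses ended with less Myc and more Mxd1 than undifferentiated cells, and the gain of Mxd1 was larger in GCSF. Differences were tested with limma on log2(normalized count + 1) over all 17414 genes that passed the filter. A gene counted as called where its Benjamini-Hochberg adjusted p was under 0.05 and its log2 fold change beyond 0.58 in size (1.49-fold), and fold changes are given on that log2 scale. At IL3-OHT 168h 2 of 8 members were called against undifferentiated cells, beside 25.4% of all genes: Myc fell and Mxd1 rose. At GCSF-OHT 168h 5 of 8 were called, beside 39.1% of all genes: Myc fell, and Mxd1, Mxd3, Mlx and Max rose. After the GCSF pre-treatment 2 of 8 were called against undifferentiated cells, Mxd3 and Mlx, both higher (33.7% of all genes called). From GCSF 0h to GCSF-OHT 168h Myc fell and Mxd1 rose, 2 of 8, beside 24.8% of all genes. Over the whole courses, 8 of 8 members were called in IL3 and 7 of 8, all but Mnt, in GCSF. Of all genes, 69.7% and 62.5% were called. Here the fold threshold applied to the largest difference of a time point from undifferentiated cells. For Mnt in GCSF this difference was 0.39, inside the threshold, although its adjusted p was 6.42e-17 (limma F test over the time points). Apart from the GCSF endpoint, the share of members called in these 4 pairwise comparisons was near or below that of all genes, so the counts alone say nothing particular of the network.

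**Figure D1:**
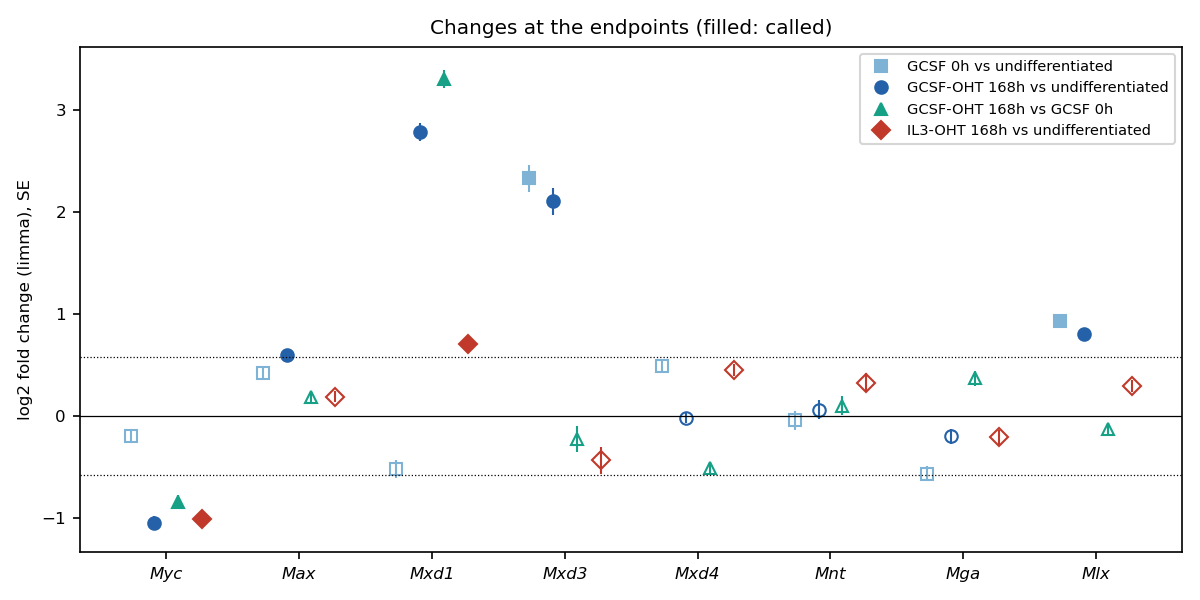
Log2 fold change of each tested member in 4 comparisons (limma, bars are SE), with filled symbols for called changes and dotted lines at the threshold of 0.58. Myc lies near -1 and Mxd1 above 0.58 at both endpoints, with Mxd1 at 2.78 in GCSF and 0.70 in IL3, and Mxd3 and Mlx are already high after GCSF alone.

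Myc, the activator of the network (ENSMUSG00000022346, chromosome 15, 61985391 to 61990374), ended at overlapping levels in both courses after different time courses. In undifferentiated cells its normalized counts were 4057, 4153 and 4178. IL3-OHT 168h held 2006, 2068 and 2093, and GCSF-OHT 168h held 1920.0, 2013 and 2073. All 6 libraries of the endpoints were below all undifferentiated ones, and those of the endpoints overlapped with each other. The change was -1.01 (SE 0.068, adjusted p = 8.98e-27) in IL3 and -1.04 (SE 0.068, adjusted p = 2.24e-28) in GCSF. From GCSF 0h (3466, 3561 and 3782) to GCSF-OHT 168h it was -0.85. From undifferentiated cells to GCSF 0h it was -0.20, which was not called. The interaction of OHT with condition at 168h, 0.16 (SE 0.096, adjusted p = 0.179) was not called.

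In the first hours Myc differed between the courses. One hour after OHT Myc was at 4963 ± 157.9 in GCSF and 5069 ± 223.2 in IL3 (SD, n = 3 each). In GCSF it then fell within 3 hours: the libraries of 1h held 4781, 5051 and 5058, those of 2h 2612, 2821 and 3083, those of 3h 1802, 1808 and 1830.4 and those of 4h 1485, 1488 and 1615. No 2 of these time points overlapped. The step from 1h to 2h (-0.81, adjusted p = 1.78e-19) was called, beside 5.19% of all genes, and so was the next, to 3h (-0.64, adjusted p = 1.06e-13), beside 2.86%. The level of 4h, 1529 ± 74.3, was the lowest of the GCSF course and 3.25-fold below the highest, at 1h. At 20h Myc stood again at 3479 ± 187.9. In IL3 the libraries at 4h were 4894, 4945 and 5051, all above those of undifferentiated cells. Myc was thus lower in GCSF than in IL3 at 2h, 3h, 4h and 8h, by -1.70 at its largest, at 4h (adjusted p = 8.35e-46). The OHT effect at 8h differed between the conditions by -0.61 (SE 0.096, adjusted p = 3.17e-08), but without replicate 3 of each group the value was -0.53 and no longer called.

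Later, Myc reached its highest level in IL3 and then fell there. Its mean was 5700.2 ± 7.81 at 40h and 5683 ± 237 at 48h, which overlap. By 88h it was 3481 ± 69.2, and its lowest mean, 1532 ± 169.2, came at 136h, a 3.72-fold span. Limma called none of the 25 steps of Myc between neighbouring time points in IL3, although 13 had an unadjusted p under 0.05 and edgeR called 1, so the loss was spread over several steps. In GCSF the means of Myc from 20h to 168h ranged from 2002 to 3479. Myc was called lower in GCSF at 7 of 25 shared time points (2h to 8h and 40h to 56h, although at 2h the value was -0.56 and not called without replicate 1) and higher at 1, 136h, beside 22.7% of all genes over the 25 time points (at 136h log2 fold change 0.85, adjusted p = 4.03e-22). Its mean difference over the 25 time points, -0.40, did not pass the threshold.

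**Figure D2:**
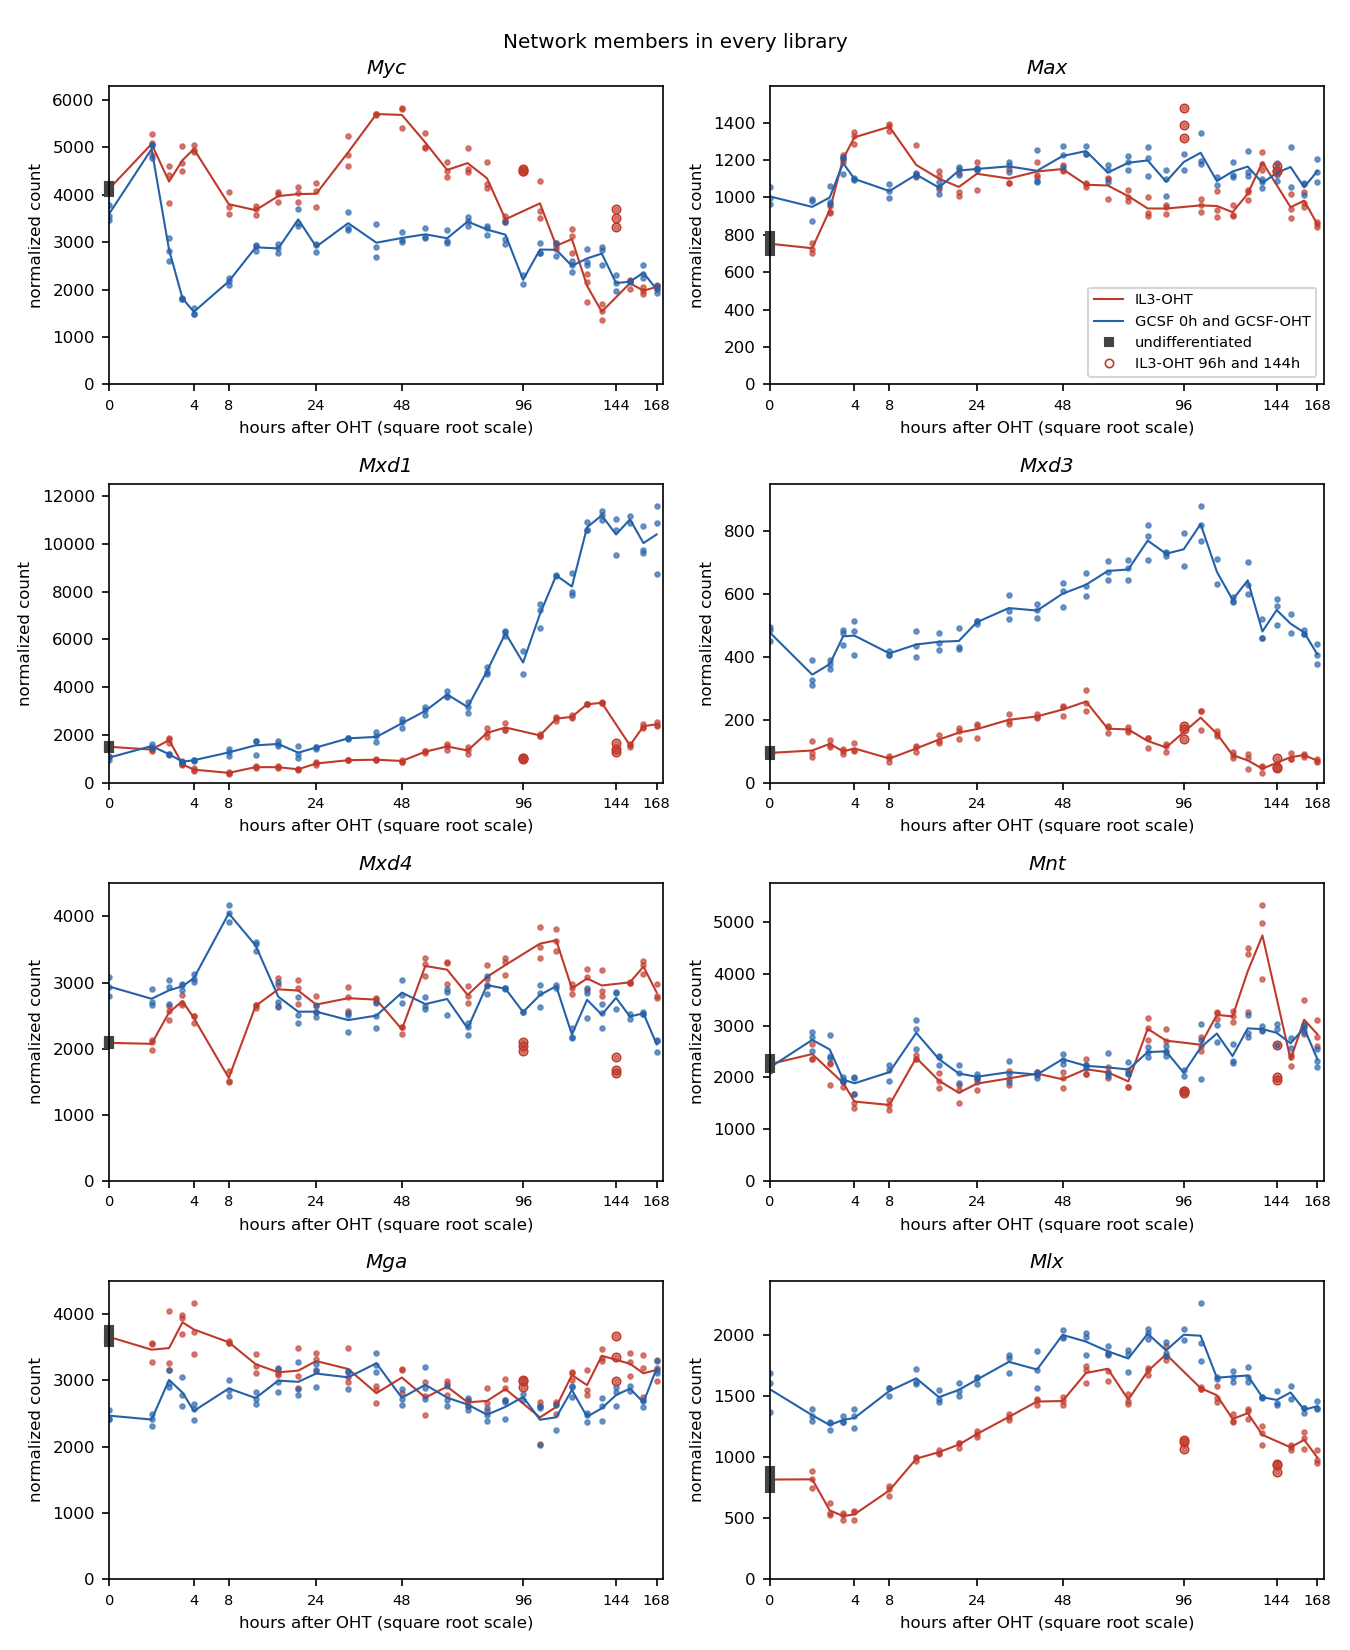
Normalized counts of the 8 tested members in every library (points) against hours after OHT on a square root scale, with lines through the means of IL3-OHT (red) and GCSF (blue), squares for undifferentiated cells and open circles for the 2 excluded time points. Myc in GCSF drops from about 4963 at 1h to 1529 at 4h, Mxd1 in GCSF climbs to 11192 at 136h, and Mxd3 lies above IL3 at all shared time points.

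Max, the obligate partner, moved within a narrow range (ENSMUSG00000059436, chromosome 12, 76937269 to 76962201). Leaving aside IL3-OHT 96h and 144h, as for all spans here, its lowest and highest means were 728 ± 27.4 at IL3-OHT 1h and 1378 ± 17.8 at IL3-OHT 8h, a 1.89-fold span, and in GCSF the span was 1.66-fold. In IL3 the libraries were 714, 751 and 792 before OHT and 1358, 1384 and 1392 at 8h, with no overlap. In GCSF the 0h libraries held 965, 997 and 1054 and the 8h libraries 998, 1033 and 1071, which overlap. The OHT effect on Max at 8h was 0.87 in IL3 and 0.04 in GCSF, and this difference was called (-0.83, SE 0.079, adjusted p = 3.26e-17). Max was therefore above its starting level early in IL3 while Myc was still high, and limma and edgeR called no step of Max between neighbouring time points in either course (unadjusted p under 0.05 in 8 of 25 steps in IL3 and 11 of 28 in GCSF). At GCSF-OHT 168h Max was above undifferentiated cells by 0.60 (SE 0.056, adjusted p = 4.12e-18). This lies just over the threshold, and the call was lost without replicate 2 of GCSF-OHT 168h (0.56) or without replicate 3 of undifferentiated cells (0.56). Already at GCSF 0h Max was above undifferentiated cells by 0.42 (adjusted p = 8.21e-11). From GCSF 0h to GCSF-OHT 168h the change was 0.18, and neither difference was called.

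Mxd1, the repressor known for terminal myeloid differentiation, had the widest span of the members in both courses, 8.21-fold in IL3 and 12.80-fold in GCSF (ENSMUSG00000001156, chromosome 6, 86647042 to 86669161). Undifferentiated cells had 1464, 1509 and 1524 and GCSF 0h cells 955, 1088 and 1101. The endpoint of IL3 held 2388, 2394 and 2549 and that of GCSF 8729, 10888 and 11571. The groups did not overlap, and every GCSF-OHT 168h library was more than 3 times as high as any IL3-OHT 168h library. The change from undifferentiated cells was 0.70 in IL3 (SE 0.087, adjusted p = 5.67e-12) and 2.78 in GCSF (SE 0.087, adjusted p = 1.64e-56). From GCSF 0h the rise was 3.30 (adjusted p = 1.51e-63), and the OHT effect at 168h was larger in GCSF than in IL3 by 2.60 (SE 0.12, adjusted p = 9.56e-39; 25.7% of all genes called). Over the 25 shared time points Mxd1 was higher in GCSF by 1.28 on average (adjusted p = 2.27e-95), one of 2 members called, beside 24.5% of all genes.

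Before this rise, Mxd1 fell in IL3 within hours. The 2h libraries held 1674, 1819.8 and 1855, the 3h libraries 729.9, 759 and 799, the 4h libraries 496, 520.0 and 612 and the 8h libraries 371, 399 and 450.3. All libraries from 3h to 8h lay below all of undifferentiated cells, and the step from 2h to 3h was -1.22 (adjusted p = 3.54e-24), beside 8.41% of all genes called. In GCSF the lowest mean, 875 ± 24.9, came at 3h. By 8h the GCSF libraries held 1095, 1296 and 1403. At 8h the OHT effect was -1.88 in IL3 and 0.27 in GCSF, a difference of 2.15 (SE 0.12, adjusted p = 9.54e-32), where 4 of 8 members and 27.4% of all genes were called. Mxd1 was then regained in IL3 by called steps between 8h and 12h (0.67), 72h and 80h (0.63) and 152h and 160h (0.60). Without replicate 1 of each group these 3 were 0.57, 0.48 and 0.57 and not called. In GCSF it climbed from 1914 ± 204.9 at 40h over 6254 ± 102.5 at 88h to 11192 ± 201.3 at 136h, with no step called by limma or edgeR, although 19 of 28 had an unadjusted p under 0.05. At single time points Mxd1 was called higher in GCSF at 22 of 25 and lower at 1, 2h (-0.58, and -0.57 and not called without replicate 1 or without replicate 2). All members together gave 64 calls in 200 such comparisons, beside 22.7% over all genes, and 55 of the calls were higher in GCSF. Of these 55, Mxd3 gave 25 and Mxd1 22, while Max and Mga gave none. The difference of Mxd1 was largest at 152h (2.82).

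The level of Mxd1 relative to Myc was also taken within each library. The exon lengths used, 7072 bases for Mxd1 and 2717 for Myc, are unions of all annotated exons. The place of 0 in the ratio depends on these lengths. With both genes per kilobase of exon, the log2 ratio of Mxd1 to Myc was -2.84 ± 0.05 in undifferentiated cells (SD, n = 3), -4.61 ± 0.05 at IL3-OHT 8h and -2.17 ± 0.22 at GCSF-OHT 8h. In GCSF it passed 0 between 104h (-0.07 ± 0.08) and 112h (0.23 ± 0.10, n = 2), and at 168h it was 0.99 ± 0.16, 1.98-fold more Mxd1 than Myc per kilobase. In IL3 the mean stayed below 0 throughout, came closest at 136h (-0.25 ± 0.17) and ended at -1.13 ± 0.05. From 112h on, all GCSF-OHT libraries lay above 0 and all IL3-OHT libraries below it.

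**Figure D3:**
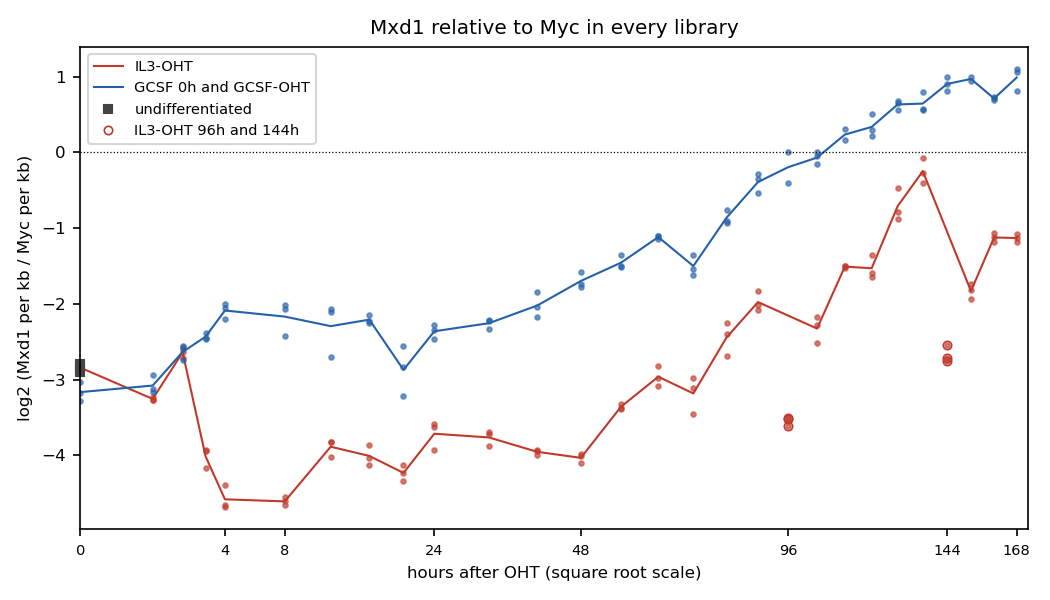
Log2 ratio of Mxd1 to Myc, both per kilobase of exon, in every library (points) with lines through the means, against hours after OHT on a square root scale. The place of 0 depends on the exon lengths used. GCSF-OHT (blue) crosses 0 after 104h and reaches 0.99 at 168h, IL3-OHT (red) stays below 0, and the excluded IL3-OHT 96h and 144h (open circles) lie at -3.54 and -2.67.

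Mxd3, an MXD protein described in dividing rather than in resting cells, followed the GCSF pre-treatment (ENSMUSG00000021485, chromosome 13, 55325168 to 55329823). Its libraries were 86.3, 96.1 and 100.8 in undifferentiated cells and 449, 486 and 495 at GCSF 0h, a change of 2.33 (SE 0.13, adjusted p = 3.54e-33). At GCSF-OHT 168h they were 378, 407 and 439.8, and the change from GCSF 0h (-0.23, adjusted p = 0.151) was not called. Mxd3 was thus up before OHT was added. It was called higher in GCSF than in IL3 at 25 of 25 shared time points, by 2.11 on average (adjusted p = 1.69e-99) and by 1.29 to 3.44 at single time points. Its highest means were 822 ± 54.7 at GCSF-OHT 104h and 258 ± 34.5 at IL3-OHT 56h, and its lowest 44.2 ± 11.1 at IL3-OHT 136h. In IL3 it rose between 88h and 104h (0.87) and again by 152h (from 136h, 0.88). It fell between 112h and 120h (-0.83) and again by 136h (from 128h, -0.62), although without replicate 2 the step to 136h (-0.49) and without replicate 3 that to 152h (0.56) lost their calls. The 120h libraries of both courses carry names of another library series than all other libraries. The step to 120h and this difference of series cannot be told apart. Proliferation genes moved beside it: of 12 listed, 11 were higher at GCSF 0h, where 13.0% of all genes were, and their summed level was 17134 to 18029 in undifferentiated cells and 42895 to 48069 at GCSF 0h. Against undifferentiated cells 0 of the 12 were higher and 4 lower at IL3-OHT 168h (10.2% and 15.2% of all genes), and 8 were higher and 0 lower at GCSF-OHT 168h (15.5% and 23.6%). From GCSF 0h to GCSF-OHT 168h 8 were lower and 0 higher (12.6% and 12.1%). At IL3-OHT 136h that sum was 7820 to 8490. Their part in the level of Mxd3 was not tested.

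Mxd4 (ENSMUSG00000037235, chromosome 5, 34173883 to 34187720) and Mnt (ENSMUSG00000000282, chromosome 11, 74830920 to 74845725) are repressors found in many tissues, and they were called within the time courses but at neither endpoint. At 8h Mxd4 lay below its starting level in IL3 and above it in GCSF. Its libraries were 2066, 2086 and 2111 in undifferentiated cells and 1491, 1511 and 1668 at IL3-OHT 8h, but 2800.1, 2930.1 and 3087 at GCSF 0h and 3914, 4047 and 4179 at GCSF-OHT 8h. No libraries overlapped within either pair, and the OHT effects of -0.42 and 0.46 differed by 0.89 (SE 0.082, adjusted p = 7.08e-18). At 168h the order had turned, with 2772, 2799 and 2979 in IL3 and 1952, 2119 and 2124 in GCSF, and the difference of the OHT effects was -0.96 (SE 0.082, adjusted p = 1.17e-19). Mxd4 and Mxd1 were the 2 members called there. In IL3 Mxd4 fell from 4h to 8h (-0.66, adjusted p = 7.93e-19) and reached its highest mean, 3639.6 ± 171.8, at 112h.

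Mnt, which keeps MYC targets in check in growing cells, had 2189, 2241 and 2351 in undifferentiated cells. It lay at 1377, 1466 and 1562 at IL3-OHT 8h, below all of these, and at 2349, 2351 and 2442 at 12h. The libraries of 8h and 12h did not overlap. Between 8h and 12h Mnt (0.70, adjusted p = 4.08e-10), Mxd4 (0.77, adjusted p = 4.37e-22) and Mxd1 rose together, 3 of 8 members, where 6.31% of all genes were called. Mnt reached 3915, 4986 and 5346 at IL3-OHT 136h, its highest mean, with a wide spread, and 2226, 2392 and 2428 at 152h, a called fall (adjusted p = 1.09e-17). It was also called to rise between 72h and 80h (0.61, but 0.53 and 0.57 and not called without replicate 1 or 2). From 136h to 152h Mxd1 fell as well (adjusted p = 1.28e-21), and 16.0% of all genes were called. In GCSF Mnt stayed between 1887 and 2956 and was the one member not called over the course, since it missed the fold threshold.

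Over all steps between neighbouring time points, 14 of 200 member steps were called in IL3 (3.65% over all genes) and 4 of 224 in GCSF (2.94%). In IL3 these were 5 steps of Mxd1, 4 of Mxd3, 3 of Mnt and 2 of Mxd4, all of them repressors. In GCSF they were the pre-treatment steps of Mxd3 and Mlx and the 2 early steps of Myc. The count in GCSF was 6 without replicate 2 and 8 without replicate 1 of each group, which added Mga in the pre-treatment (-0.61), Mxd3 from 0h to 1h (-0.62) and 2 steps of Mxd1, from 72h to 80h (0.59) and to 104h from 96h (0.62). The last rests on 1 library at 96h, which was assumed to vary like the other groups.

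Mga had the narrowest span of the members in both courses, 1.59-fold in IL3 and 1.52-fold in GCSF, with means between 2404 and 3874 in all groups (ENSMUSG00000033943, chromosome 2, 119897228 to 119969581). Its libraries were 3579.9, 3619 and 3759 in undifferentiated cells and 2418, 2419 and 2558 at GCSF 0h, with no overlap. The change of -0.57 (SE 0.075) stayed just inside the threshold, and it was called without replicate 1 of either group (-0.59 and -0.58). Its level at the endpoints, 3156 ± 158.2 in IL3 and 3179 ± 93.1 in GCSF, overlapped between the conditions.

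Mlx, the partner shared with the glucose sensors, was higher after the GCSF pre-treatment than in undifferentiated cells (ENSMUSG00000017801, chromosome 11, 101087277 to 101092207). Undifferentiated cells had 747, 813 and 885, GCSF 0h cells 1367, 1604 and 1688 and GCSF-OHT 168h cells 1390.4, 1399.9 and 1455. The rise was present at GCSF 0h (0.93, SE 0.057, adjusted p = 6.94e-30), and the change from GCSF 0h to GCSF-OHT 168h was -0.13, which was not called. In IL3 Mlx was 483, 525 and 537 at 3h, below all undifferentiated libraries, and 1789.8, 1822 and 1906 at 88h, above all of them. At 88h the conditions met (difference 0.03), and by 168h Mlx in IL3 was at 951, 977 and 1059, between these levels. It was called higher in GCSF at 6 of 25 time points, 1h to 12h, by up to 1.34 at 3h (adjusted p = 5.21e-43).

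Of the 4 other genes of the network, Mycl had at most 5 reads and was not tested, and Mxi1, Mlxip and Mlxipl were. Mxi1, the remaining MXD repressor, was called at the IL3 endpoint (1.19, adjusted p = 4.92e-30) and not at the GCSF endpoint (0.39). Its means in IL3 were 2873 ± 64.2 before OHT, 1016 ± 119.7 at 4h, 9178 ± 77 at 136h and 6561 ± 19.7 at 168h. At 8h its mean was 1609 ± 184.5 in IL3, below undifferentiated cells, and 3223 ± 431 in GCSF, above GCSF 0h (2614 ± 81.7), and the OHT effect in GCSF minus that in IL3 was 1.14 (adjusted p = 2.32e-18). At 168h it was 3774 ± 318 in GCSF, which was not called against GCSF 0h (0.53), and the same difference was -0.66 (adjusted p = 2.03e-08). Of the MXD genes, Mxi1 thus had the largest endpoint value in IL3 and Mxd1 in GCSF, a difference between genes that was not tested. ChREBP (Mlxipl) was higher at GCSF 0h (0.84) and in GCSF on average (0.89), and MondoA (Mlxip) rose from GCSF 0h to GCSF-OHT 168h (0.66).

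IL3-OHT 96h and 144h were taken 8 h after fresh OHT, and at both Mxd1, Mxd4 and Mnt were low against the mean of the time points 8 h before and 8 h after. At 96h 4 of 8 members were called, beside 17.5% of all genes, all lower: Mxd1 (-1.08, SE 0.076, adjusted p = 1.73e-25), Mxd4 (-0.75), Mnt (-0.63) and Mlx (-0.61, -0.57 and not called without replicate 3). At 144h 4 of 8 were called, beside 15.3% of all genes: Myc was higher (0.96, SE 0.058, adjusted p = 3.45e-30), and Mxd4 (-0.79), Mxd1 (-0.67) and Mnt (-0.61, -0.53 and not called without replicate 1) were lower. Mxd1 and Mnt were already far lower at 152h than at 136h, so at 144h they lay near 152h rather than outside both neighbours.

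The libraries show this directly. At 96h Mxd1 had 969, 1028 and 1035, against 2189, 2221 and 2514 before and 1950.4, 1955 and 2019.9 after. At 144h Mxd4 had 1636, 1671 and 1878, against 2793, 2878 and 3196 before and 2996, 2999.5 and 3015 after. Myc at 144h had 3328, 3501 and 3696, against 1354, 1549.6 and 1691 before and 2009.7, 2183 and 2206 after. In each case the middle time point lay outside both neighbours with no overlap. Max at 96h was at 1317, 1388 and 1478, against 912, 951 and 958 at 88h and 921, 957 and 994 at 104h, and its change of 0.55 stayed inside the threshold although no libraries overlapped.

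For comparison, 8 h after the first OHT in IL3 the differences from undifferentiated cells were 0.87 for Max, -1.88 for Mxd1, -0.62 for Mnt, -0.42 for Mxd4, -0.16 for Mlx and -0.12 for Myc. These differences were not tested singly, and a likeness to the values after fresh OHT was not tested. At 48h, 8 h after the fresh OHT of 40h, none of the 8 members was called in IL3 by limma (1.6% of all genes were), with Mxd1 at -0.30 (adjusted p = 0.00253) and Mxd4 at -0.38 (adjusted p = 3.5e-09). Both had an adjusted p under 0.05 and missed the fold threshold. In GCSF none was called by limma at 48h, 96h or 144h, beside 0.35%, 4.66% and 1.85% of all genes. The unadjusted p was under 0.05 for 4 of 8 members at IL3-OHT 48h and for 3, 4 and 2 at these GCSF time points, and edgeR called none in any of the 4 comparisons. There Myc was at -0.44 (adjusted p = 6.2e-08) and Mxd1 at -0.41 (adjusted p = 0.000131) at 96h. The exchange of medium, the fresh OHT and the plate of the time point came together, and their parts cannot be told apart. Of 6 progenitor markers 1, Mpo, was called lower at IL3-OHT 96h (-0.93) and 0 higher (8.18% and 9.34% of all genes). Their summed level, to which Elane gave 54666 at 96h, was 147790 to 167360 at 88h, 83418 to 88043 at 96h and 90371 to 112490 at 104h. Of the 12 proliferation genes 4 were higher and 0 lower at 96h (9.34% and 8.18% of all genes). The summed level of these 12 was 15514 to 16790, 21131 to 22042 and 17065 to 18726 at 88h, 96h and 104h. The part of these markers in the result was not tested.

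**Figure D4:**
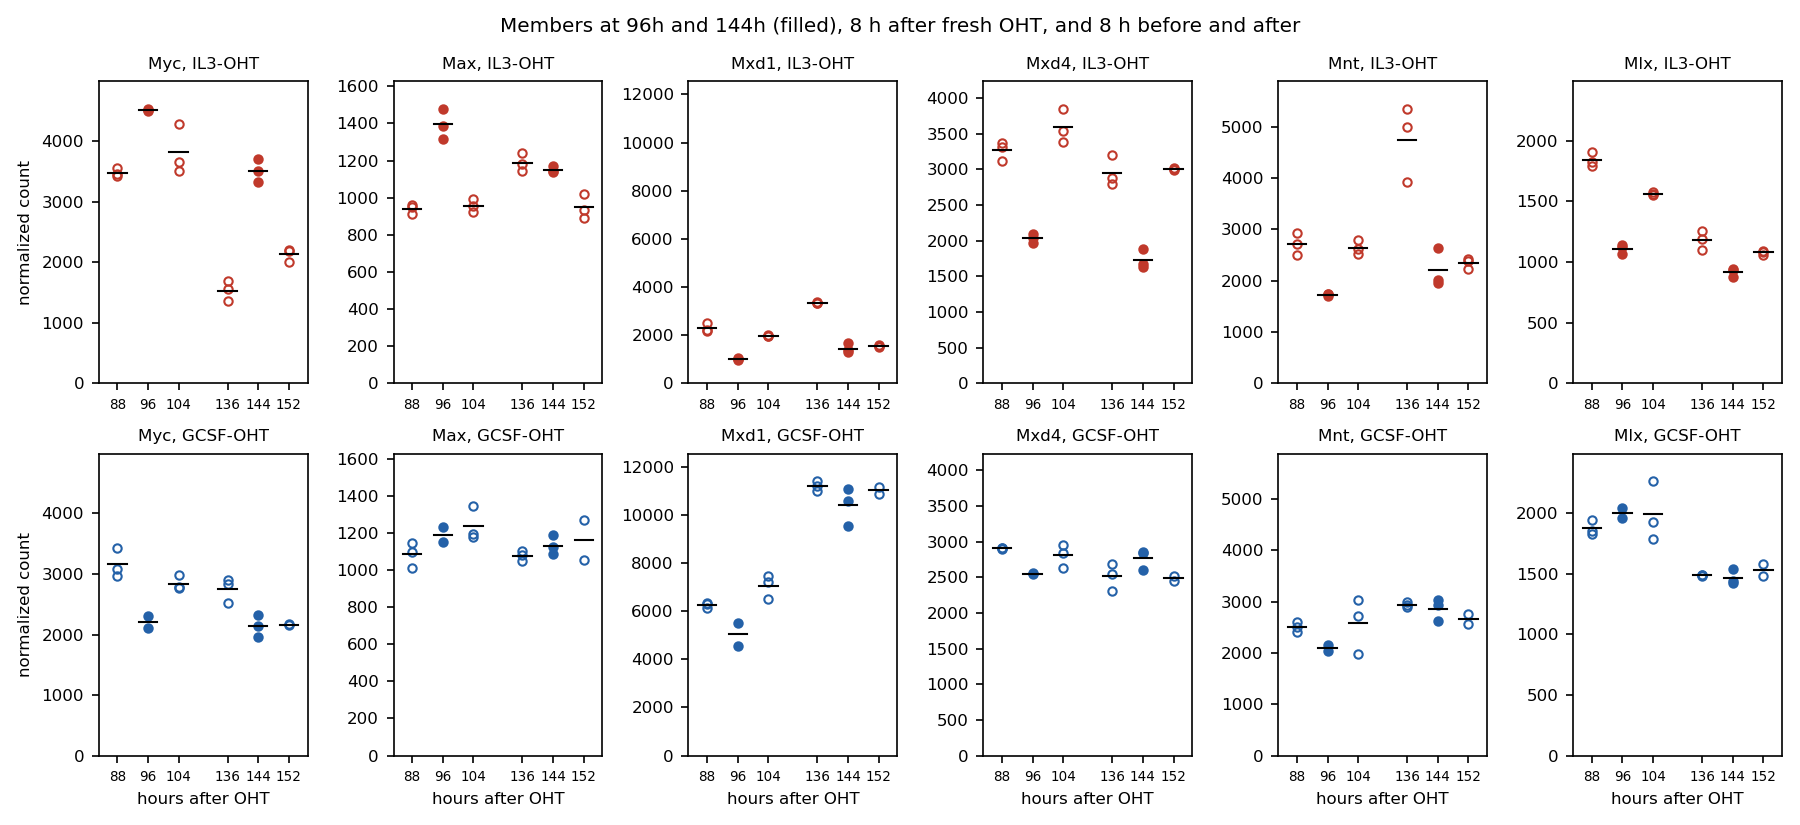
Normalized counts of 6 members in every library (points, bars are means) at 88h, 96h and 104h and at 136h, 144h and 152h, in IL3-OHT (upper row) and GCSF-OHT (lower row), with the time points 8 h after fresh OHT filled. In IL3 the mean of Mxd1 is 2308 at 88h and 1011 at 96h and that of Mxd4 3266 and 2035, while GCSF shows no called change.

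Of the genes that MYC is known to activate, more were called lower than higher at both endpoints. Of 26 such genes, among them nucleolar, ribosome assembly and metabolic genes, 12 were lower and 0 higher at IL3-OHT 168h than in undifferentiated cells (15.2% and 10.2% of all genes), with a median of -0.57 beside -0.03 over all genes. At GCSF-OHT 168h 16 were lower and 1, Tfrc, higher (23.6% and 15.5% of all genes; median -0.66 beside -0.11). From GCSF 0h to GCSF-OHT 168h 20 were lower and 2, Ldha and Tfrc, higher (12.6% and 12.1% of all genes). Ldha lay just over the threshold there, and the count of 2 was 1 with upper-quartile scaling, without replicate 1 or replicate 2 of each group, and without replicate 2 or 3 of GCSF 0h or replicate 1 or 2 of GCSF-OHT 168h alone. Odc1, the first enzyme of polyamine synthesis, was 3758 ± 68.8 in undifferentiated cells, 1321 ± 36.7 at IL3-OHT 168h and 791 ± 41.2 at GCSF-OHT 168h, changes of -1.51 and -2.25. Rrp12, a factor of ribosome export, changed by -1.66 and -2.06, and Nop58, a core protein of small nucleolar ribonucleoproteins, by -1.34 and -0.94. Ccnd2, a G1 cyclin, fell in GCSF (-1.59).

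Between the conditions the same genes were lower in GCSF early. At 8h, where Myc was lower in GCSF than in IL3 by 0.81 on the log2 scale, 23 of the 26 genes were lower in GCSF and 0 higher (13.5% and 12.0% of all genes), with a median of -1.41 beside -0.046. At 4h, where the gap in Myc was wider, 12 were lower and 0 higher (15.2% and 11.6% of all genes). At 136h, where Myc was higher in GCSF, 5 were higher and 7 lower (16.0% and 18.1%). At IL3-OHT 96h 17 of the 26 were higher than at 88h and 104h and 1, Ldha, lower (9.34% and 8.18% of all genes), and at 144h 18 were higher than at 136h and 152h and 0 lower (8.58% and 6.77%), with medians of 0.99 and 0.75 beside 0.00 over all genes. At 144h Rrp12 was 1159 ± 108.3, against 339.6 ± 30.3 before and 486 ± 23.8 after. Myc itself was called at 144h and not at 96h (0.31). Whether the genes followed Myc was not tested.

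**Figure D5:**
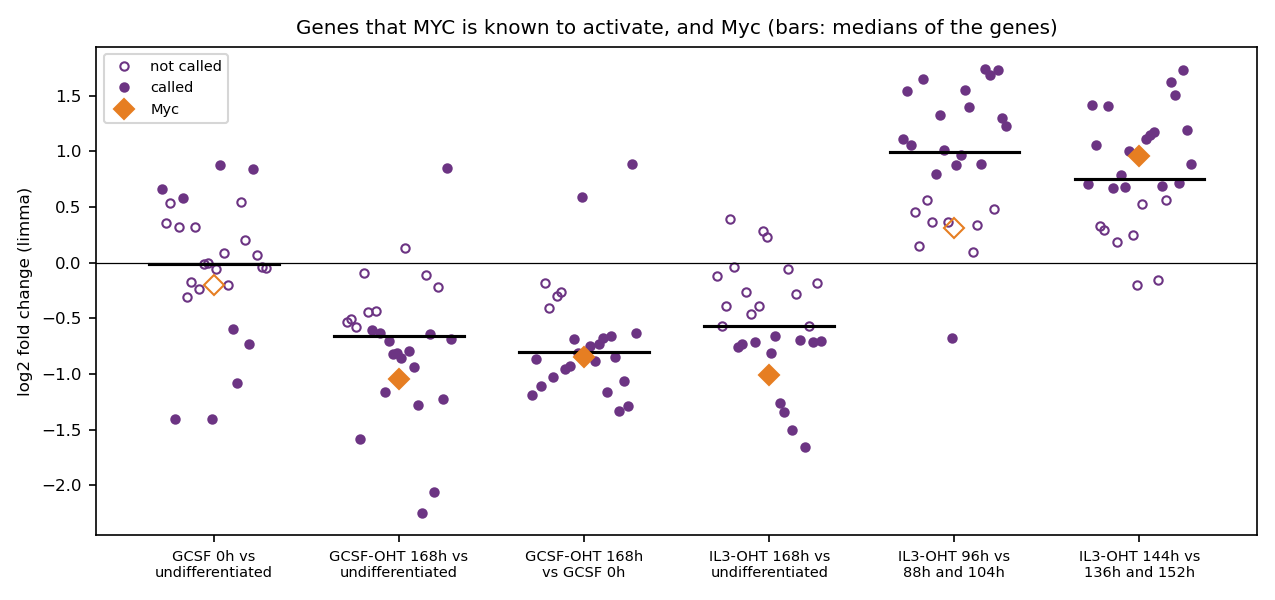
Log2 fold change (limma) of each of 26 genes that MYC is known to activate (circles, filled where called; bars are medians) and of Myc (diamonds) in 6 comparisons. The genes lie mostly below 0 at the 3 endpoint comparisons after OHT and mostly above 0 at IL3-OHT 96h and 144h against their neighbours, where the medians are 0.99 and 0.75.

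Of 7 genes that MYC is known to repress, 5 were higher and 1 lower at IL3-OHT 168h (10.2% and 15.2% of all genes), and 2 were higher and 3 lower at GCSF-OHT 168h (15.5% and 23.6%). Already after the pre-treatment 2 were higher and 5 lower (13.0% and 20.7%). From GCSF 0h to GCSF-OHT 168h 4 were higher and 0 lower (12.1% and 12.6%). Cdkn1b, the CDK inhibitor p27, was 592 ± 23.7 in undifferentiated cells and rose by 2.91 in IL3 and 2.61 in GCSF, and Cebpd, a C/EBP factor, rose by 2.77 and 2.84. Cdkn1a, the CDK inhibitor p21, was called in opposite directions against undifferentiated cells, 0.89 in IL3 and -0.75 in GCSF. Its level was 14613 ± 236 in undifferentiated cells, 7764 ± 558 at GCSF 0h and 8720 ± 635 at GCSF-OHT 168h, so it had fallen in GCSF before OHT. Cdkn2b, the CDK inhibitor p15, at a normalized count of only 62.6 ± 8.39 in undifferentiated cells, fell in both, and was 11.3 ± 1.55 already at GCSF 0h. At IL3-OHT 96h 5 of the 7 were lower and 0 higher (8.18% and 9.34% of all genes), with Cdkn1b at -1.06, and at 144h 4 were lower and 0 higher (6.77% and 8.58%).

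Of 16 cofactors and turnover factors of MYC, 0 were higher and 1, the acetyltransferase Kat5 (-0.78), lower at IL3-OHT 168h (10.2% and 15.2% of all genes). From GCSF 0h to GCSF-OHT 168h 4 were lower and 0 higher (12.6% and 12.1%), or 1 higher without replicate 2 of each group or of GCSF 0h alone, and at IL3-OHT 96h 4 were higher and 1 lower (9.34% and 8.18%). At GCSF-OHT 168h Skp2, part of a ubiquitin ligase of MYC, was higher than in undifferentiated cells (0.99) and the helicase Ruvbl2 lower (-0.71). Skp2 was 134.6 ± 8.19 in undifferentiated cells, 443 ± 6.1 at GCSF 0h and 268 ± 2.28 at GCSF-OHT 168h, so it had risen before OHT. Among 10 genes of the SIN3 and histone deacetylase corepressor, through which MXD proteins and MNT act, 2 were higher at each endpoint and 0 lower. Of all genes, 10.2% were higher and 15.2% lower in IL3, and 15.5% and 23.6% in GCSF. The 2 corepressor genes were at both endpoints Sap30 (1.60 in IL3 and 2.09 in GCSF) and Sin3a (0.70 and 0.85). Sin3a was lower at IL3-OHT 144h (-0.72). Of the 2 targets of MondoA and MLX, Txnip, which limits glucose uptake, rose at IL3-OHT 168h (0.85). It was lower at IL3-OHT 96h (-0.82) and 144h (-1.15). Arrdc4 was lower at GCSF-OHT 168h than in undifferentiated cells (-0.97). Its mean was 3516 in undifferentiated cells, 1380 at GCSF 0h and 1793 at GCSF-OHT 168h, so it had fallen before OHT. After the pre-treatment, where Mlx and Mlxipl were called higher, 2 of the 2 targets were called lower (20.7% of all genes). From GCSF 0h to GCSF-OHT 168h 0 were called, or 1, higher, when some single replicates were left out. A link of the targets to Mlx or Mlxipl was not tested. At IL3-OHT 144h Txnip was 30786 ± 1088, against 101670.0 ± 5888 before and 45944 ± 1786 after.

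The genes most like each member in time were found by Pearson's r of log2 means over 54 time point means, among 12298 genes, as a description. Those of Mxd3 were Hmgb2 (r = 0.98), Cdc45 (0.97) and Tcf19 (0.969). Those of Mxd1 were Gadd45b (0.968), the neutrophil chemokine receptor Cxcr2 (0.945) and Kif13b (0.942), and those of Mlx Hjurp (0.963), Lipe (0.953) and Prss16 (0.951). Most like Mnt were Clk3 (0.903), Suds3 (0.899), a subunit of the SIN3 corepressor, and Tmem134 (0.894), and genes like Mga included Ppp4r2 (0.836) and Ireb2 (0.828). For Max (Bid 0.8, Pik3c2b 0.789, Caprin1 0.775), Myc (Atp10a 0.752, Glrp1 and Lect2 0.745 each) and Mxd4 (Tspo 0.712, Ripor1 0.702, Wdr45 0.695) the likeness was weaker. The means of a course are successive time points of 1 line. Among the members, Mlx and Mga ran most opposite (r = -0.766) and Mlx and Mxd3 most alike (0.679), and Myc and Mxd1 were at -0.493.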

How the data were processed

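RNA-seq libraries of PUER cells were taken at 27 time points after OHT in each condition and before OHT, 165 libraries in 56 groups (53 of 3 wells, 3 of 2). The titles of the GCSF 0h libraries mention OHT, but the descriptions place these before its addition. Salmon and GRCm38 were used upstream per the labels, and the authors deposited 1 table of normalized counts, a signal scaled by the DESeq2 size factor of each library. How transcripts were brought to genes is not given in the sources used here. Dividing by the step of 1 read gave whole reads for 100.0% of values (tolerance 1e-09), which give the depth and serve the count tests.

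All genes reaching a normalized count of 5 in any library were tested with limma 3.58.1 (R 4.3.3, trended) on log2(normalized count + 1), with 1 mean per group over 159 libraries. IL3-OHT 96h and 144h entered only the fits of time points after fresh OHT. A difference was called at a Benjamini-Hochberg adjusted p under 0.05 within its comparison and a log2 fold change beyond 0.58. OHT by condition is the change from GCSF 0h in GCSF-OHT minus that from undifferentiated cells in IL3-OHT. The test was checked on simulated counts.

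The 9 members and all gene lists were chosen with earlier results of these data known. From each list at most 4 genes were named, those with the largest change among the called at either endpoint. Tfrc, Ldha and the 4 added steps were named after their values were seen. One gene that the likeness rule names is not reported here. Positions and exon lengths are from GENCODE vM21 and promoters from RefSeq. Alternatives were pseudocounts of 0.5 and 5, no filter or a mean of at least 10, upper-quartile scaling, each replicate and library left out, the replicate block, only the groups compared, all libraries, edgeR 4.0.16 and DESeq2 1.42.0.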

Additional observations from a re-analysis of the deposited data

Results flagged for a closer look

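The OHT effect of a member differed between GCSF and IL3, by a test of the difference itself (limma, called as above), in 6 cases. At 8h the effect in GCSF minus that in IL3 was -0.6078 for Myc, -0.8324 for Max, 2.1496 for Mxd1 and 0.8867 for Mxd4, on the log2 scale. Behind these stood effects of -0.73 and -0.12 for Myc, 0.04 and 0.87 for Max, 0.27 and -1.88 for Mxd1, and 0.46 and -0.42 for Mxd4, in GCSF and IL3 in this order. At 168h it was 2.5979 for Mxd1 (3.30 in GCSF and 0.70 in IL3) and -0.9571 for Mxd4 (-0.51 and 0.45). Mxd4 thus changed the sign of the difference between 8h and 168h, while Mxd1 kept it. The OHT dose, the cytokine and the pre-treatment differ together between the conditions and cannot be told apart. Groups of 3 libraries are too small for a check of single libraries that stand apart.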

How the results depend on the processing

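Of the counts of members called, 162 stayed within 1.5 times the reported count under an alternative setting. The 1 exception was the count of GCSF steps, reported as 4, which ranged from 4 to 8 when 1 replicate was left out. Over the whole courses edgeR called 7 members in IL3 and 6 in GCSF. Of the fold changes of named genes under an alternative, 3230 kept their direction and call, 21 lost and 7 gained a call and 13, all of values near 0 and not called, changed sign; the cause was not tested. For Mxd4 at the GCSF endpoint these were 0.0260 with edgeR, 0.0295 with DESeq2 and -0.0379 to 0.0235 with 1 replicate or library left out, and for Mnt after the pre-treatment 0.0082 with DESeq2. With 1 replicate left out, Mnt in GCSF against IL3 ranged from -0.0002 to 0.0396, Mxd3 in the OHT effect at 8h from -0.0888 to 0.245 and Max in that at 168h from -0.0394 to 0.04. After fresh OHT in IL3, Mxd3 ranged from -0.0153 to 0.207 at 96h and from -0.3451 to 0.0965 at 144h, and Mga from -0.0358 to 0.085 at 144h. Calls gained were those of Mga in the pre-treatment and in the OHT effect at 168h (0.60 without replicate 1 and 0.61 without replicate 2), of Mnt in the OHT effect at 8h (0.68 without replicate 3) and of Max at IL3-OHT 96h (0.60 without replicate 1). The calls of Myc and Mxd1 in GCSF against IL3 at 2h were lost with edgeR (-0.53 for both). Same-numbered replicates did not deviate together (correlation -0.0408 to 0.0307 at the endpoints, and -0.14 to 0.101 between neighbouring time points), so the numbers do not pair the samples. The replicate block left the count at the GCSF endpoint at 5 and changed no other count of members. Of the counts of list genes called, 1305 stayed within 1.5 times the reported count and 39, all of 0 to 2 genes, moved. Depth limits only Mycn and Mycl.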
